A study of Mus musculus with 24 samples.

Results

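Splenic type 1 conventional dendritic cells (cDC1) that carry a Zeb2 transgene were compared with cDC1 that carry a Zeb2 deletion, in mice with the same Cre driver on both sides. The members are the raw count tables of all cDC1 libraries labelled TG CRE+ (4) and KO CRE+ (4), 8 of the 24 libraries of the series. The TG CRE+ mice were CD11cCRExR26-Zeb2Tg/Tg, so a transgene for Zeb2, placed at Rosa26, is turned on by Cre under CD11c sequences. The KO CRE+ mice were CD11cCRExZeb2fl/fl, in which the same driver acts on floxed Zeb2. Littermates without Cre gave 2 cDC1 libraries labelled TG CRE- (R26-Zeb2Tg/Tg) and 2 labelled KO CRE- (Zeb2fl/fl). All groups were untreated C57Bl/6 mice aged 6 to 12 weeks. The CD11c driver is also active in other cells that express CD11c, so Zeb2 was not altered in cDC1 alone. Because each allele comes with its own mouse line, allele and line cannot be told apart in the comparison of TG CRE+ with KO CRE+. A gene that also differed between the Cre-negative cDC1 of the lines is therefore called marked below, and each main value is set beside a line-adjusted difference, (TG CRE+ minus TG CRE-) minus (KO CRE+ minus KO CRE-).

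Zeb2 encodes a zinc-finger repressor that binds paired E-box sequences, and Zeb1 encodes its close relative. In dendritic cells Zeb2 is known for its high level in cDC2 and plasmacytoid dendritic cells (pDC) and its low level in cDC1. The series title places Id2 under Zeb2. Id2 encodes a protein that binds E proteins and keeps them from DNA, and cDC1 need it together with Irf8 and Batf3. cDC1 are known for taking up dead cells and presenting their antigens to CD8 T cells, and cDC2 for presenting antigens to CD4 T cells.

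The 8 libraries held 23647541 to 36094786 counts over genes, and 13521 to 13923 genes had a count in each. The labels do not say that replicates are separate mice, so the spread behind each p-value is that of these libraries and may be technical. The labelled cell type held in both groups. Xcr1, the chemokine receptor that defines cDC1, stood at 778, 835, 805 and 889 CPM (counts per 1e+06 mapped to genes, scaled by TMM) in TG CRE+ cDC1, against 1030, 1020, 913 and 988 CPM in KO CRE+ cDC1. Clec9a, their receptor for dead cells, averaged 203 ± 32.1 CPM in TG CRE+ and 241 ± 27.4 CPM in KO CRE+ cDC1 (SD, n = 4 each). Of 7 cDC1 markers, 3 were lower in TG CRE+ cDC1 and none was higher (42.9%, beside 18.8% of all genes). On the first principal component of the 8 libraries, which held 33.1% of the variance, TG CRE+ libraries lay at 34.6 to 55.0 and KO CRE+ libraries at -59.9 to -36.6. TG CRE+ replicates 1 and 2 were closer to each other than any other pair of the 8 within a group, with a chi-square per gene of 14.2 against 41.1 to 51.1 for the other TG CRE+ pairs and 20.6 to 43.6 among KO CRE+ libraries. Counts and genes that lean on these libraries, or on KO CRE+ replicate 2, which was high for maturation genes, are given below also without them.

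Zeb2 differed as the labels say. The gene, on chromosome 2 from 44983512 to 45117442 in mm10, stood at 44.3, 45, 46.3 and 41.4 CPM in TG CRE+ cDC1, against 0.686, 0.457, 1.06 and 2.67 CPM in KO CRE+ cDC1. The groups were far apart, and the TG CRE+ libraries were close to each other. This was 36.6-fold higher (log2 5.19, SE 0.32), with an adjusted p of 1.21e-10 in edgeR's quasi-likelihood test after Benjamini-Hochberg adjustment over all genes, the test behind every adjusted p below unless another is named. An exact two-sided permutation test over the 70 assignments of the libraries gave p = 0.0286, the smallest it allows. TG CRE- cDC1 held 3.26 and 2.36 CPM and KO CRE- cDC1 0.488 and 2.56 CPM, so Zeb2 was low in cDC1 of both lines without Cre. The line-adjusted difference was 4.27 (SE 0.63, adjusted p = 0.000243). KO CRE+ cDC1 overlapped KO CRE- cDC1, and the whole gene was counted, so in cDC1 the Zeb2 count does not check the deletion. Zeb1 was at log2 -0.42 (SE 0.15, adjusted p = 0.0566), with 24.3 ± 5.46 CPM in TG CRE+ and 32.5 ± 2.73 CPM in KO CRE+ cDC1 (SD, n = 4 each). It did not pass, and it did pass with DESeq2's size factors (adjusted p = 0.0473).

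Id2 was lower with the transgene. It stood at 829, 879, 858 and 800 CPM in TG CRE+ cDC1, against 1470, 1450, 1340 and 1230 CPM in KO CRE+ cDC1, with no overlap. It was 1.63-fold lower (log2 -0.71, SE 0.13, adjusted p = 0.00029). Cre-negative cDC1 held 1220 and 1310 CPM in the transgene line and 1580 and 1310 CPM in the deletion line. The line-adjusted difference was -0.52 (SE 0.22, adjusted p = 0.257) and did not pass. Among the 6 tested genes of the Id and E proteins, Id2 was the 1 that passed (16.7%, near the 18.8% of all genes). None passed in the line-adjusted difference. The E protein genes Tcf3, Tcf4 and Tcf12 had log2 fold changes of 0.01, -0.22 and 0.11, and none passed.

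**Figure D1:**
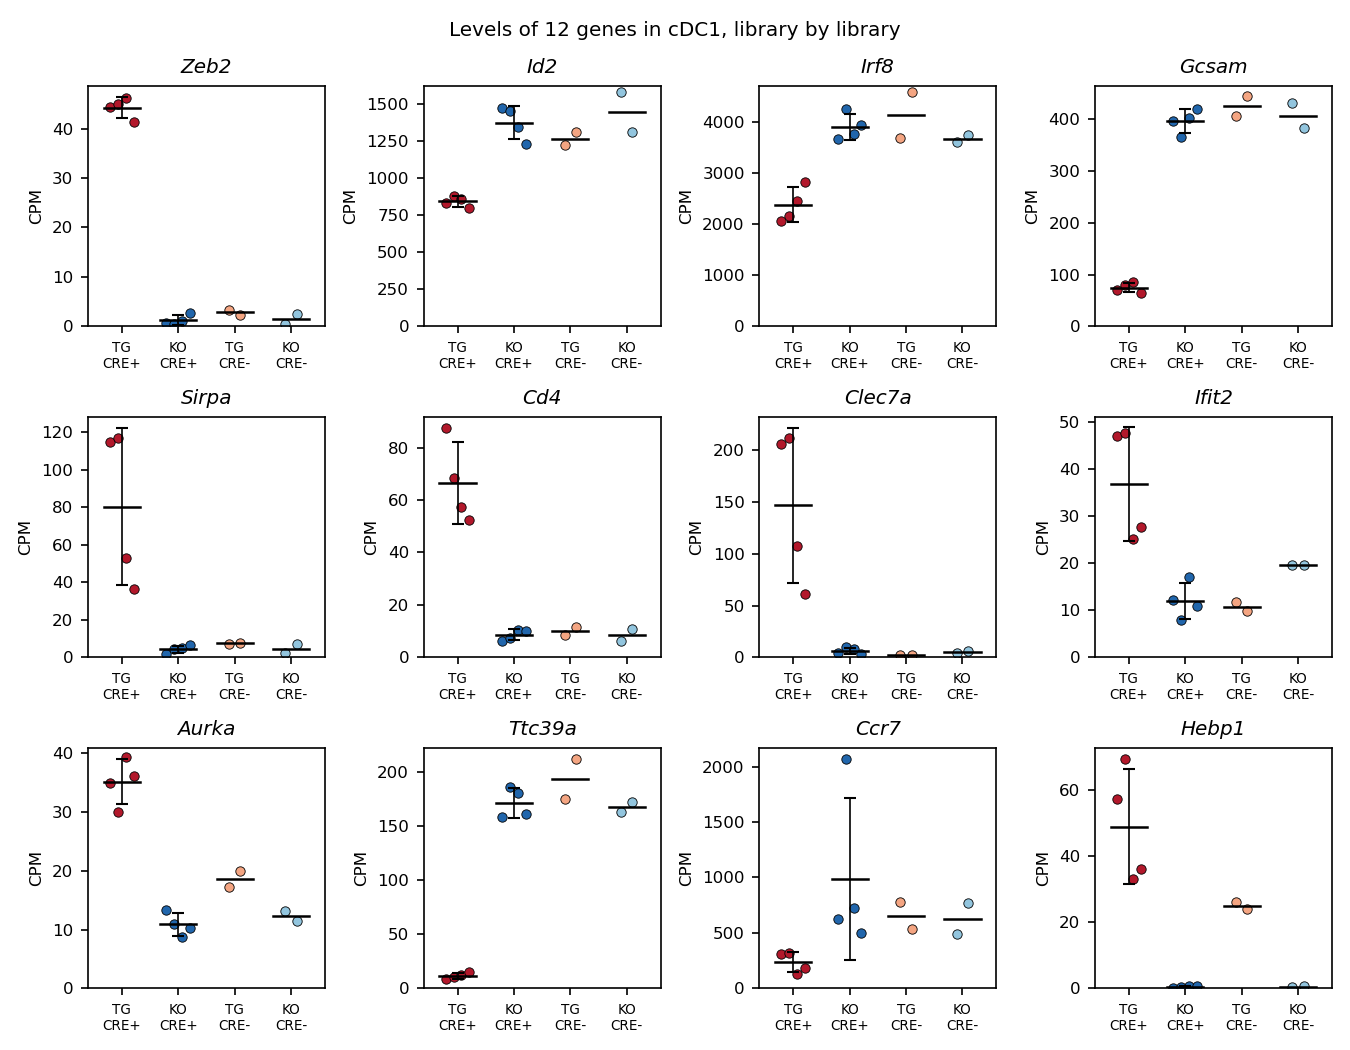
CPM of 12 genes in each cDC1 library, by group (TG CRE+ and KO CRE+, 4 libraries each; TG CRE- and KO CRE-, 2 each); linear axes from 0, points are libraries, horizontal lines are means, and error bars are SD for the groups of 4. Zeb2 stands at 41.4 to 46.3 CPM in TG CRE+ and at most 2.67 CPM in KO CRE+ cDC1, Ttc39a, Gcsam and Id2 are lower in TG CRE+ than in all other libraries, and Hebp1 is also high in TG CRE-.

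ZEB factors are known to bind the E-box CACCTG, which reads CAGGTG on the other strand. The 250 bases before the RefSeq start of Id2 and of 2 of the genes with the lowest fold changes are shown because repression by Zeb2 is the question the title raises. The windows are from GRCm38.p6, the assembly of mm10, are read 5′ to 3′ on the gene's strand, and carry the E-box in capitals. Asprv1 was chosen after its values and its motifs had been seen. The window of Id2 is chr12:25096093-25096342 (minus strand), that of Fcrla chr1:170927584-170927833 (minus strand, within the gene's annotated span) and that of Asprv1 chr6:86627924-86628173 (plus strand).
Id2: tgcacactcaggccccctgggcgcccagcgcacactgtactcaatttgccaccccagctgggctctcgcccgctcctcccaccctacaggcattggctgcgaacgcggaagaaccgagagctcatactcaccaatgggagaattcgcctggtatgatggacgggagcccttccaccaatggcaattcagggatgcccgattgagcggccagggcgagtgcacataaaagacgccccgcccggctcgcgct
Fcrla: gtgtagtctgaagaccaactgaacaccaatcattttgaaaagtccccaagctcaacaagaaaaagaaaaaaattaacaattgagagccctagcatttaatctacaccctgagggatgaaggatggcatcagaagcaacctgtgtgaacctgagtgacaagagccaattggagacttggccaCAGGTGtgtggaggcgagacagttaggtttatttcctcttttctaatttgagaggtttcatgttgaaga
Asprv1: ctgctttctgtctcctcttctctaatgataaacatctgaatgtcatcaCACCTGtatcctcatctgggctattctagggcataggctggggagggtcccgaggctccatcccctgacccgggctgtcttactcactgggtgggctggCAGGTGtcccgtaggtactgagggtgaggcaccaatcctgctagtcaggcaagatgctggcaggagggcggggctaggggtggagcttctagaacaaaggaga
The Id2 window held 0 copies of CACCTG or CAGGTG, that of Fcrla 1 and that of Asprv1 2. Of the 10 lowest named genes, 6 have a window, and it held the E-box in 3 (Fcrla, Gm3336 and Asprv1) and not in Ttc39a, Crispld2 and Tnfrsf4. Of the 10 highest, 6 have a window, and 1, Ptger3, held it. A match is a description and not a binding site, and the windows say nothing of sites elsewhere. Over all tested genes, 1517 of 10057 with a window (15.1%) held CACCTG or CAGGTG, and the median GC content was 59.6%. Of the unmarked genes higher with the transgene, 112 of 974 windows (11.5%) held it, at a median GC of 58.8%. Of those lower with the transgene, 155 of 886 (17.5%) held it, at a median GC of 60.4%. Among genes lower at least 2-fold the share was 70 of 276 (25.4%, median GC 59.2%), and among genes higher at least 2-fold it was 37 of 322 (11.5%, median GC 55.6%). A related E-box, CAGCTG, reads the same on both strands, and the Id2 window above holds it, in small letters. It stood in 11.5% of all windows, 14.9% of those lower at least 2-fold and 10.9% of those higher at least 2-fold. These shares are given as a description with no test.

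Across the 13166 genes tested, 2477 (18.8%) passed at an adjusted p under 0.05. Of these, 1280 (9.72%) were higher and 1197 (9.09%) lower in TG CRE+ than in KO CRE+ cDC1. With a fold change of at least 2, 442 (3.36%) were higher and 389 (2.95%) lower. All 4 libraries of one group lay beyond all 4 of the other for 1389 genes higher (10.5%) and 1221 lower (9.27%), 19.8% in either direction. Without TG CRE+ replicates 1 and 2 together, 778 genes were lower.

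The Cre-negative cDC1 of the lines differed in 17 genes (0.129%), 6 higher (0.0456%) and 11 lower (0.0835%) in TG CRE- than in KO CRE-, and 948 (7.2%) had an unadjusted p under 0.05. DESeq2's Wald test called 53. With 2 libraries a group, a gene that did not pass is not shown to be alike in the lines. Of the 2477 genes of the main comparison, 15 were marked, 6 among those higher and 9 among those lower. All 15 had the same sign with and without Cre, in libraries that are not shared. The other 2 marked genes, 2810408A11Rik and Arhgdib, did not pass between TG CRE+ and KO CRE+ cDC1.

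Among the marked genes, Hebp1 and Gt(ROSA)26Sor differed most in the main comparison. The Rosa26 transcript Gt(ROSA)26Sor, from the locus that carries the transgene, stood at 0.036, 0.0847, 0.504 and 0.116 CPM in TG CRE+, against 13.9, 11.7, 16.8 and 12.8 CPM in KO CRE+ cDC1. It was as low without Cre, at 0.0402 and 0.394 CPM in TG CRE- against 19.2 and 15.3 CPM in KO CRE- cDC1. On the log2 scale the difference was -6.22 (SE 0.43, adjusted p = 8.77e-10) with Cre and -6.38 (adjusted p = 2.89e-06) without. Hebp1, a heme-binding protein gene on chromosome 6, averaged 49 ± 17.4 CPM in TG CRE+ and 0.499 ± 0.215 CPM in KO CRE+ cDC1 (SD, n = 4 each). It was higher by log2 6.63 (SE 0.42, adjusted p = 1.59e-10) with Cre and 5.7 (adjusted p = 7.56e-06) without, and the line-adjusted difference of 0.93 did not pass (adjusted p = 0.727). Nnt, which encodes a mitochondrial transhydrogenase, stood at 34.6, 34.2, 34.7 and 35.7 CPM in TG CRE+, against 109, 105, 127 and 123 CPM in KO CRE+ cDC1. In the absence of Cre it stood at 35.3 and 38.9 CPM in TG CRE- and at 114 and 112 CPM in KO CRE- cDC1. Wdfy1, Dusp16 and Etv6, an ETS repressor gene known in cDC development, were likewise lower with and without Cre. Ifih1, the gene for the RNA sensor MDA5, Fastkd1 and the cyclin F gene Ccnf were higher with and without Cre. Ifih1 stood at 31.7, 27.8, 25 and 23.8 CPM in TG CRE+, against 6.06, 3.87, 5.82 and 5.05 CPM in KO CRE+ cDC1, and at 14.8 and 14.6 CPM in TG CRE- against 4.58 and 4.45 CPM in KO CRE- cDC1.

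Of the 17 marked genes, 7 lie on chromosome 6, which holds Rosa26, and 4 on chromosome 2, which holds Zeb2. Of the 7, 1 lies within 5 Mb of Rosa26 (Gt(ROSA)26Sor itself), 1 between 5 and 20 Mb and 5 at 21 to 23.9 Mb. The 4 on chromosome 2 lie 8.2 to 105.6 Mb from Zeb2. On chromosome 6, 22.4% of 680 tested genes passed in the main comparison, and on chromosome 2 18.4% of 1028, beside 18.8% of all genes. Within 5 Mb of Rosa26, 17 of 61 tested genes (27.9%) passed. Between 5 and 20 Mb it was 47 of 164 (28.7%), and farther away on the chromosome 88 of 455 (19.3%). The part of position in these calls was not tested.

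**Figure D2:**
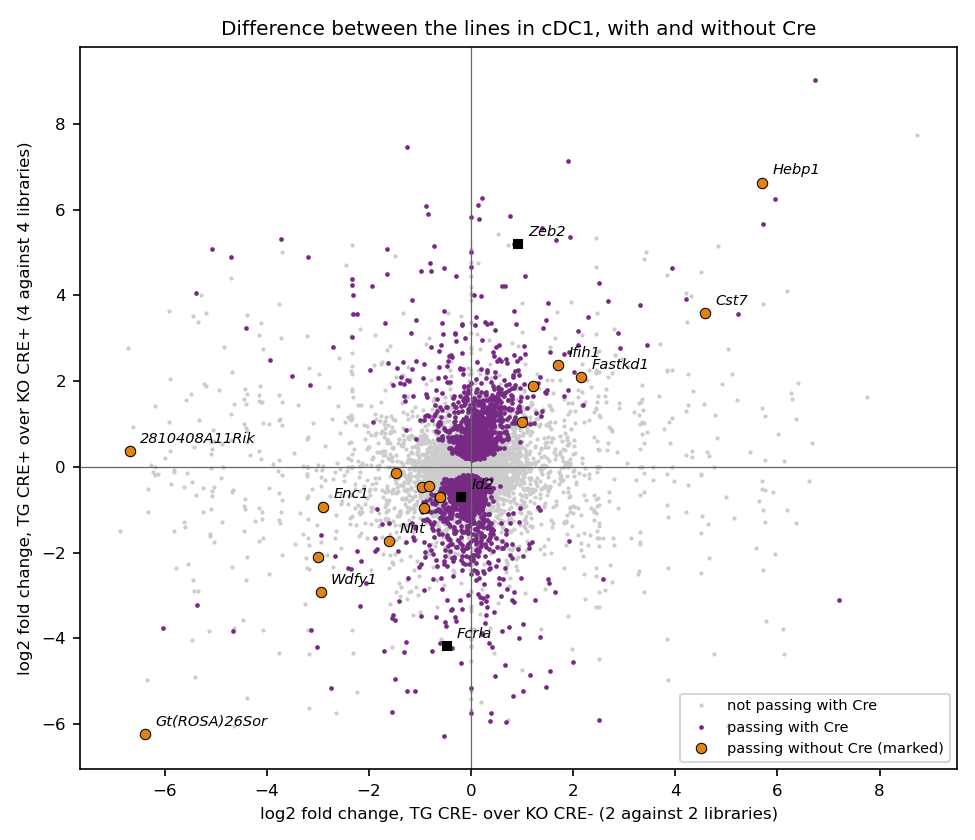
Log2 fold change of all 13166 tested genes between the lines in cDC1, with Cre (TG CRE+ over KO CRE+, vertical) and without Cre (TG CRE- over KO CRE-, horizontal); purple points passed with Cre, orange circles are the 17 marked genes that passed without Cre, and black squares are Zeb2, Id2 and Fcrla. Hebp1 (6.63 and 5.7) and Gt(ROSA)26Sor (-6.22 and -6.38) lie far from 0 on both axes, while Zeb2 (5.19 and 0.93) and Fcrla (-4.19 and -0.48) lie far from 0 mainly with Cre.

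The line-adjusted difference passed for 380 genes (2.89%), 187 higher and 193 lower. It uses the same Cre-positive libraries as the main comparison, and its 4 control libraries add error. Its count was 601 by DESeq2's Wald test and 169 without KO CRE- replicate 1. The share of all genes called was 1.42% higher and 1.47% lower, and counts of the gene lists by this measure are given below. Within each line, TG CRE+ cDC1 differed from TG CRE- cDC1 in 922 genes (7%), 472 higher (3.58%) and 450 lower (3.42%). KO CRE+ cDC1 differed from KO CRE- cDC1 in 3 genes (0.0228%), all higher. The 3 were Itgad, an integrin subunit gene, the phospholipase gene Plcb4 and the zinc-finger gene Zfp831, named after their values were seen. An unadjusted p under 0.05 was found for 633 genes (4.81%) in the deletion line, about the share that chance gives. In the transgene line it was found for 2599 (19.7%). Each of these comparisons set 4 libraries against 2, so a gene that did not pass is not shown to be unchanged.

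Genes that identify cDC1 were in part lower with the transgene. Of 20 genes in the cDC1 identity list, 10 were lower, 1 was higher and 9 did not pass. The share called was 55%, beside 18.8% of all genes, and the median log2 fold change was -0.50 beside 0 over all genes. Gcsam, a signalling adaptor gene first known from germinal centre B cells, stood at 70.6, 79.3, 85.3 and 64 CPM in TG CRE+, against 397, 366, 402 and 420 CPM in KO CRE+ cDC1. That is 5.3-fold lower (log2 -2.41, SE 0.18, adjusted p = 1.67e-09), and the line-adjusted difference of -2.47 passed as well (adjusted p = 1.93e-05). Hepacam2, an adhesion protein gene, was 3.19-fold lower, with 37.2, 42.6, 55.5 and 33.2 CPM in TG CRE+ against 104, 105, 177 and 151 CPM in KO CRE+ cDC1 (adjusted p = 1.27e-06). The endosomal receptors Tlr11, which senses profilin, and Tlr3, which senses double-stranded RNA, were 1.74-fold and 1.93-fold lower. Wdfy4, which cDC1 need for cross-presentation, stood at 1480, 1430, 2020 and 1670 CPM in TG CRE+, against 2560, 2610, 2650 and 2810 CPM in KO CRE+ cDC1, 1.61-fold lower (adjusted p = 6.59e-05).

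Irf8, the transcription factor gene on which cDC1 depend, stood at 2060, 2160, 2450 and 2830 CPM in TG CRE+, against 3660, 4250, 3760 and 3930 CPM in KO CRE+ cDC1. The groups did not overlap, and it was 1.64-fold lower (log2 -0.72, SE 0.15, adjusted p = 0.00127). Its line-adjusted difference of -0.89 did not pass (adjusted p = 0.0652). Cd8a, Btla, Ly75 and Id2 were the other members that were lower. Cd207, the gene for langerin, was the member that was higher, at 52.7 CPM in TG CRE+ and 25.3 CPM in KO CRE+ cDC1 on average (adjusted p = 0.0029), and its line-adjusted difference was 0.02. Batf3, Cadm1, Naaa, Cd24a, Cd36, Itgae, Snx22, Xcr1 and Clec9a did not pass, with log2 fold changes of -0.32 to 0.10. In the line-adjusted difference, 4 of the 20 were lower and none was higher, with a median of -0.59.

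Of 25 lineage transcription factor genes, 9 were lower and 1, Zeb2, was higher (40%, beside 18.8% of all genes). Zbtb46, a factor of all cDC, stood at 124, 129, 145 and 131 CPM in TG CRE+, against 180, 210, 189 and 186 CPM in KO CRE+ cDC1. The fold was modest (1.45-fold lower, adjusted p = 6.71e-05), with no overlap, and the line-adjusted difference of -0.64 passed (adjusted p = 0.0134). Rbpj, the nuclear partner of Notch, was 1.5-fold lower (adjusted p = 2.84e-05), and Mycl, a Myc family member of cDC1, was 1.56-fold lower (adjusted p = 0.000102). Bcl6, Stat3, Relb, Irf8 and Id2 were also lower, as was the marked gene Etv6, whose line-adjusted difference was -0.10. Irf4, Batf3, Nfil3, Spi1, Runx1, Runx3, Tcf4 and Klf4 were among the 15 that did not pass. Adjusted for line, 1 of the 25 was higher and 2 were lower, with a median of -0.14.

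Genes that identify cDC2 were in part higher with the transgene. Of 20 genes in the cDC2 identity list, 10 were higher and 2 lower (60%, beside 18.8% of all genes), with a median log2 fold change of 0.67. Adjusted for line, 5 were higher and none was lower, with a median of 1.00. Sirpa, an inhibitory receptor that marks cDC2, stood at 115, 117, 53.1 and 36.2 CPM in TG CRE+, against 1.9, 4.24, 4.94 and 6.3 CPM in KO CRE+ cDC1. It was 18.6-fold higher (log2 4.22, SE 0.36, adjusted p = 1.81e-08), with the higher values in TG CRE+ replicates 1 and 2. Cd4, the coreceptor found on part of splenic cDC2, stood at 87.6, 68.3, 57.4 and 52.4 CPM in TG CRE+, against 6.36, 7.19, 10.6 and 10 CPM in KO CRE+ cDC1, 7.8-fold higher (log2 2.96, SE 0.18, adjusted p = 1e-10). Its line-adjusted difference of 2.75 passed (adjusted p = 1.19e-05). Cd300a, an inhibitory receptor gene, stood at 297, 277, 222 and 225 CPM in TG CRE+, against 101, 85.6, 87.8 and 113 CPM in KO CRE+ cDC1, 2.64-fold higher (adjusted p = 8.64e-09). The integrin gene Itgam, which encodes CD11b, was 7.18-fold higher, and Esam, an adhesion protein gene, was 2.29-fold higher.

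Other cDC2 genes did not pass or were lower. Irf4, a transcription factor gene on which cDC2 depend, averaged 12.7 CPM in TG CRE+ and 11.5 CPM in KO CRE+ cDC1 (adjusted p = 0.816). The lectin genes Clec10a and Mgl2 were near 0 in both groups, at 0.036 and 0.0512 CPM in TG CRE+ and 0.12 and 0.19 CPM in KO CRE+ cDC1, and did not pass. Notch2 and Relb were the members that were lower, and without TG CRE+ replicate 4 neither passed. In 13 of the 20 genes both TG CRE+ replicates 1 and 2 lay above replicates 3 and 4, and with the first pair left out 7 of the 20 were higher. Of the 7 cDC2 markers used to check the cells, 6 were higher (85.7%, beside 18.8% of all genes called) and Irf4 did not pass. Their summed level was 117.5 to 295.2 CPM in TG CRE+ and 25.7 to 45.3 CPM in KO CRE+ cDC1. The excess of TG CRE+ over KO CRE+ cDC1 was set against the mean level in TG CRE+ cDC2 for some genes of the list. It was 39.4% of that level for Cd300a, 17.3% for Clec4a2, 16.8% for Cd4 and 5.31% for Sirpa. It was 1.88% for Clec4a4, 0.656% for Irf4, -0.444% for Clec10a and -20.5% for Clec12a. In these bulk libraries, a change in the number of cells of a type and in RNA per cell cannot be told apart. The part of cDC2 in the TG CRE+ cDC1 libraries was not tested.

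C-type lectin receptors and paired immune receptors bind carbohydrates or other ligands on cells and microbes. Of 22 tested lectin genes, 9 were higher and 3 lower (54.5%, beside 18.8% of all genes), with a median of 1.33. In the line-adjusted difference 6 were higher and none was lower. This list shares 6 genes with the cDC2 list (Cd209a, Clec4a2, Clec4a4, Clec10a, Clec12a and Mgl2), so its counts are not separate from those above. Clec7a, the gene for the beta-glucan receptor dectin-1, stood at 206, 212, 107 and 61.4 CPM in TG CRE+, against 3.88, 10.1, 7.67 and 3.1 CPM in KO CRE+ cDC1. It was 23.7-fold higher (log2 4.57, SE 0.36, adjusted p = 4.9e-09), and the line-adjusted difference of 5.54 passed (adjusted p = 2.26e-05). Clec1b, known as a podoplanin receptor, was 8.75-fold higher, with 18.3, 12.7, 12.7 and 8.64 CPM in TG CRE+ against 1.45, 1.33, 1.68 and 1.51 CPM in KO CRE+ cDC1. The Clec4a genes lie side by side on chromosome 6, which also holds Rosa26, the site of the transgene. They are alike in sequence, so reads may be split between them. Clec4a1 stood at 17, 20.4, 8.41 and 4.49 CPM in TG CRE+, against 0.114, 0.125, 0.176 and 0.216 CPM in KO CRE+ cDC1, 77.5-fold higher (log2 6.28, SE 0.49, adjusted p = 4.51e-09). Clec4a2 was 12.3-fold higher (adjusted p = 1.92e-07). Clec4a4, the gene for the cDC2 marker DCIR2, had 289 counts in TG CRE+ and 1 count in KO CRE+ cDC1, which gives a ratio of 249 (44.3 to 9860, the 95% interval from counting error alone). The lectin genes that were lower were Clec4b2, Olr1 and Ly75. The Olr1 ratio was 0.0478 (3 counts in TG CRE+ against 54 in KO CRE+, interval 0.00956 to 0.147).

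Of 18 tested genes of the CD300, SIRP, PIR and Fc receptor-like families, 10 were higher and 3 lower, with a median of 1.44. The share called was 72.2%, beside 18.8% of all genes. In the line-adjusted difference 6 were higher and 1 was lower. Sirpa and Cd300a stand in the cDC2 list too. Sirpb1a, an activating relative of Sirpa, stood at 6.62, 6.91, 3.49 and 2.72 CPM in TG CRE+, against 0, 0, 0.221 and 0.129 CPM in KO CRE+ cDC1, 55.3-fold higher (log2 5.79, SE 0.45, adjusted p = 4.29e-09). Sirpb1b and Gm9733, which lie near it on chromosome 3 and may share its reads, were higher too. Gm9733 had 191 counts in TG CRE+ and 2 in KO CRE+ cDC1, a ratio of 82.2 (interval 22.4 to 684). The Fc receptor-like gene Fcrla ran the other way. It stood at 3.38, 2.75, 3.84 and 2.9 CPM in TG CRE+, against 51.2, 52.7, 84.2 and 46.4 CPM in KO CRE+ cDC1, 18.2-fold lower (log2 -4.19, SE 0.28, adjusted p = 3.52e-10). Without Cre, cDC1 held 37.1 and 39.2 CPM in the transgene line and 40 and 66.4 CPM in the deletion line, and the line-adjusted difference was -3.71 (SE 0.43, adjusted p = 1.58e-05). Cd300c and Fcrlb were the other 2 that were lower.

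Some markers of red pulp macrophages were higher. Of 15 genes, 5 were higher and none was lower (33.3%, beside 18.8% of all genes), and without TG CRE+ replicate 3 the count was 8. The summed level was 276 to 517 CPM in TG CRE+ and 160.0 to 205 CPM in KO CRE+ cDC1. Adjusted for line, 1 of the 15 was higher. Adgre1, which encodes F4/80 and is also expressed by cDC2, stood at 66.5, 80.8, 34.8 and 30.5 CPM in TG CRE+, against 3.16, 5.07, 6.57 and 4.23 CPM in KO CRE+ cDC1 (11.2-fold higher, adjusted p = 1.66e-09). The iron exporter gene Slc40a1, the heme oxygenase gene Hmox1, Axl and Spic were the others. The complement genes C1qa, C1qb and C1qc and the scavenger receptor genes Cd163 and Marco did not pass, nor did Vcam1, at 84.8 CPM in TG CRE+ and 79.5 CPM in KO CRE+ cDC1 on average. Of 16 tested monocyte markers, 3 were higher (Csf1r, Ms4a4c and Cd300e) and 1, Ace, was lower (25%, beside 18.8% of all genes). Their summed levels were 2082 to 3102 CPM in TG CRE+ and 2318 to 4275 CPM in KO CRE+ cDC1. The pDC list had 3 higher and 4 lower of 19 (36.8%). B cell markers had 1 higher and 2 lower of 8 tested (37.5%). T cell markers had 3 lower of 13 (23.1%) and NK cell markers 2 lower of 10 (20%), both near the 18.8% of all genes. Without TG CRE+ replicates 1 and 2 together no NK cell marker was lower, without replicates 3 and 4 together 1 T cell marker was, and with the 8 libraries fitted alone 1 pDC marker was higher and 1 B cell marker lower. Neutrophil and erythroid markers each had 1 gene higher, of 8 and 6 tested, with summed levels of at most 15.4 CPM in any library. Elane had no count in the 8 libraries, nor had the globin genes Hba-a1, Hba-a2 and Hbb-bt. The part of other cell types in the results was not tested.

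Interferon response genes were higher with the transgene. Of 25 genes, 16 were higher and 2 lower (72%, beside 18.8% of all genes), with a median of 1.45. In the line-adjusted difference 7 were higher and none was lower, with the same median. Many of these genes are also higher in cDC2. Between Cre-negative cDC2 and cDC1, 17 of the 25 were higher in cDC2 and 3 lower, with a median of 1.53, beside 27.6% and 25.8% of all genes. The part of this subset difference in the rise was not tested. The members that were higher included RNA sensors and translation inhibitors. Ddx58, the gene for the RNA sensor RIG-I, stood at 27.3, 18.9, 14.5 and 9.07 CPM in TG CRE+, against 0.609, 1.83, 2.25 and 2.16 CPM in KO CRE+ cDC1. It was 10.3-fold higher (log2 3.36, SE 0.29, adjusted p = 2.43e-08), and the line-adjusted difference of 5.04 passed (adjusted p = 5.24e-05). Ifit2, whose product inhibits translation, stood at 47.1, 47.7, 25.1 and 27.8 CPM in TG CRE+, against 12.1, 7.94, 17 and 11 CPM in KO CRE+ cDC1 (3.08-fold higher, adjusted p = 6.87e-06). Rtp4, known as a receptor chaperone, was 47.5-fold higher (log2 5.57, SE 0.49, adjusted p = 2.53e-08), with 17.8, 16.8, 6.9 and 5.04 CPM in TG CRE+ against 0.381, 0, 0.353 and 0.216 CPM in KO CRE+ cDC1. Ifit1bl1 and Ifit3b were 26.9-fold and 25-fold higher, and since Ifit3b is nearly the same as Ifit3 the split of reads between them is uncertain. Oasl2 was 8.51-fold higher (adjusted p = 1.74e-07).

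Irf9, which encodes a subunit of the factor that carries the type I interferon signal, was lower, at log2 -0.25 (adjusted p = 0.0297), and without a filter on low counts no gene of the list was lower. Stat2, Irf7, Mx1, Mx2, Usp18, Oasl1 and Cxcl10 did not pass. In 22 of the 25, both TG CRE+ replicates 1 and 2 lay above replicates 3 and 4, and without replicates 1 and 2 together 12 of the 25 were higher. Ifih1 is marked, and its line-adjusted difference was 0.68 (adjusted p = 0.16).

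Toll-like receptor genes were split. Of 16 genes of the receptors and their partners, 5 were higher and 2, Tlr3 and Tlr11, were lower, with a median of 0.16. The share called was 43.8%, beside 18.8% of all genes. Tlr1, which pairs with Tlr2 to sense lipopeptides, stood at 42.9, 54.4, 26 and 19.6 CPM in TG CRE+, against 6.97, 7.57, 7.76 and 5.69 CPM in KO CRE+ cDC1, 5.09-fold higher (adjusted p = 7.79e-08). Tlr7, which senses single-stranded RNA and is known to be scarce in cDC1, stood at 5.21, 4.28, 1.09 and 0.522 CPM in TG CRE+, against 0.152, 0.166, 0.0882 and 0.302 CPM in KO CRE+ cDC1 (14.9-fold higher, adjusted p = 0.000124). Its line-adjusted difference of 5.05 did not pass (adjusted p = 0.0809). Tlr6, Tlr9 and Ly86 were the others that were higher, and without TG CRE+ replicates 1 and 2 the count was 2. Adjusted for line, 1 of the 16 was higher and 1 lower.

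**Figure D3:**
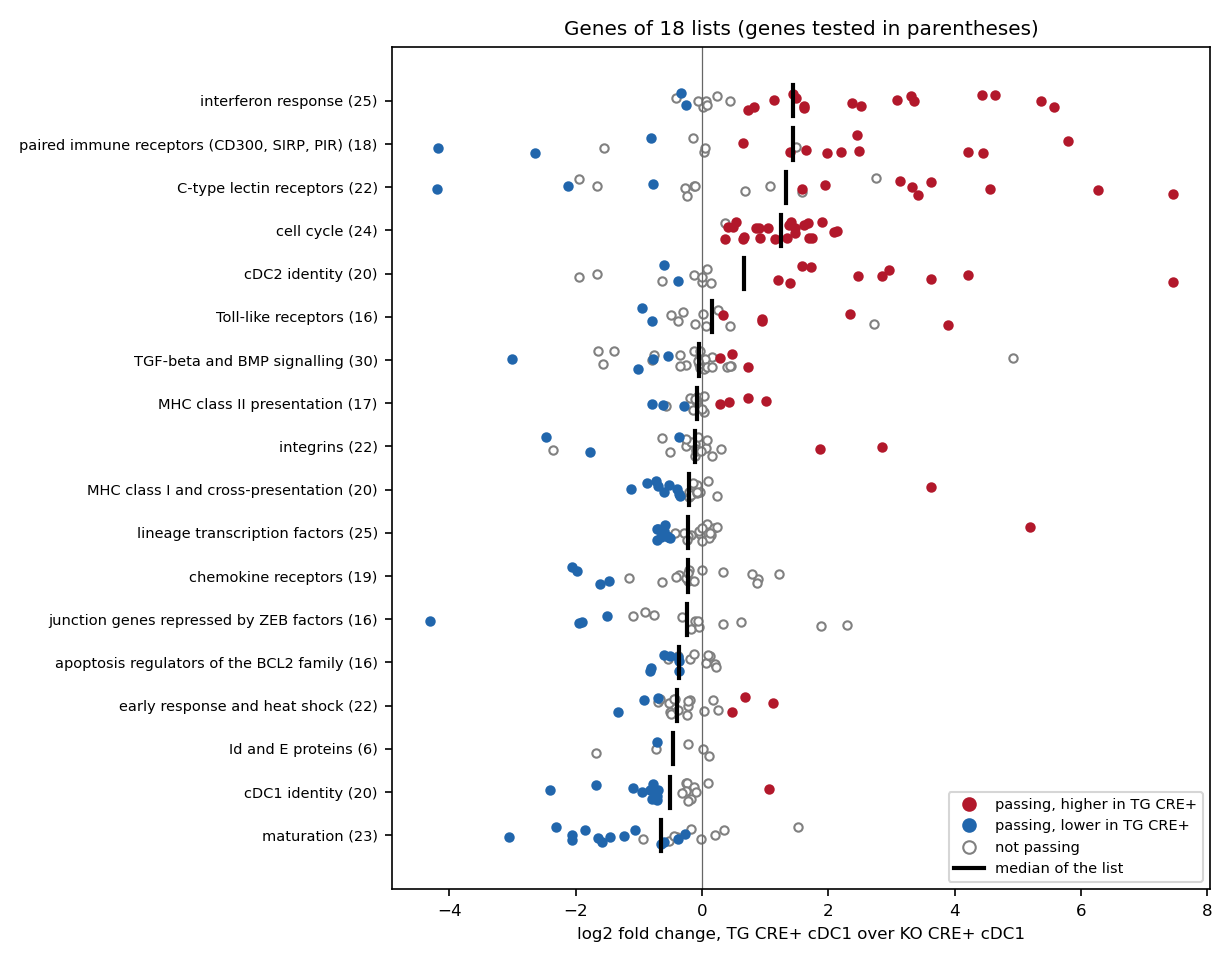
Log2 fold change of each tested gene of 18 lists, TG CRE+ over KO CRE+ cDC1, with lists ordered by their median from highest at the top; red and blue points passed the test, open points did not, and black bars are medians. The interferon response list has the highest median (1.45), nearly all cell cycle genes lie on the higher side (23 of 24 passing), and the maturation list has the lowest median (-0.66).

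Cell cycle genes were higher as a group. Of 24 genes, 23 were higher and none was lower, with a median of 1.25, beside 9.72% of all genes higher. Aurka, a spindle kinase gene, stood at 35, 30.1, 39.4 and 36.2 CPM in TG CRE+, against 13.4, 11, 8.78 and 10.3 CPM in KO CRE+ cDC1, 3.23-fold higher (log2 1.69, SE 0.13, adjusted p = 3.96e-09). The mitotic kinase gene Aurkb was 3.36-fold higher, with 62.8, 62.6, 75.4 and 73.3 CPM in TG CRE+ against 19.3, 19, 16.8 and 26.5 CPM in KO CRE+ cDC1. The cyclin genes Ccnb1 and Ccna2 were 4.25-fold and 3.73-fold higher (adjusted p = 5.05e-08 and 6.41e-08). The DNA replication genes Mcm3, Mcm4, Mcm5, Mcm6, Mcm7 and Pcna were higher by log2 0.36 to 0.67. Mcm2 was the member that did not pass (0.37, adjusted p = 0.0763).

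The TG CRE- libraries lay above the KO CRE- libraries too. Aurka stood at 17.3 and 19.9 CPM in TG CRE- and 13.2 and 11.4 CPM in KO CRE- cDC1, a log2 fold change of 0.60 that did not pass (adjusted p = 0.42). In 19 of the 24 genes both TG CRE+ replicates 3 and 4 lay above replicates 1 and 2, and with replicates 3 and 4 left out 18 of the 24 were higher. Adjusted for line, 6 of the 24 passed, all higher, with a median of 0.88. Within the lines, the median log2 fold change of Cre-positive over Cre-negative cDC1 was 0.60 in the transgene line, where 10 genes were higher, and -0.20 in the deletion line, where none passed.

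Maturation genes, which cDC switch on when they leave for the lymph node, were in part lower with the transgene. Of 23 genes, 14 were lower and none was higher (60.9%, beside 18.8% of all genes), with a median of -0.66. Without KO CRE+ replicate 2 the count was 9. In 16 of the 23, both TG CRE+ replicates 1 and 2 lay above replicates 3 and 4. The mean log2 CPM of the list was 5.015, 5.1, 4.017 and 4.246 in TG CRE+ cDC1. It was 5.236, 6.298, 5.419 and 5.07 in KO CRE+ cDC1, so the groups overlapped. Within the lines, the median log2 fold change of Cre-positive over Cre-negative cDC1 was -0.21 in the transgene line and 0.38 in the deletion line. Ccr7, the receptor for lymph node chemokines, stood at 305, 320, 133 and 187 CPM in TG CRE+, against 627, 2070, 728 and 503 CPM in KO CRE+ cDC1. KO CRE+ replicate 2 lay far above its group, and the groups still did not overlap (4.16-fold lower, log2 -2.06, SE 0.38, adjusted p = 0.00043). With that library left out the log2 fold change of Ccr7 was -1.38 (adjusted p = 0.00267). Fscn1, the gene for the actin bundler fascin, stood at 107, 104, 29.3 and 42.9 CPM in TG CRE+, against 211, 698, 246 and 247 CPM in KO CRE+ cDC1 (4.96-fold lower, adjusted p = 0.000115), and its log2 fold change of -2.31 became -1.72 when KO CRE+ replicate 2 was left out. Cd200, an inhibitory ligand gene, stood at 13.6, 13.5, 13.6 and 9.97 CPM in TG CRE+, against 31.1, 47.9, 32 and 27.5 CPM in KO CRE+ cDC1 (2.74-fold lower, adjusted p = 7.91e-07). Tnfrsf4, which encodes OX40, was 8.32-fold lower (log2 -3.06, and -2.28 when KO CRE+ replicate 2 was left out), and the chemokine gene Ccl22 was 2.98-fold lower. Among costimulatory genes, Cd86 was 1.2-fold lower (adjusted p = 0.0431), and Cd40, Cd80 and Cd274 did not pass. In the line-adjusted difference 4 of the 23 were lower (Fscn1, Ccl22, Cd200 and Tnfrsf4) and none was higher, with a median of -0.76.

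Of 19 tested chemokine receptor genes, 4 were lower and none was higher (21.1%, near the 18.8% of all genes), with a median of -0.22, and 1 was lower and none higher in the line-adjusted difference. Cxcr3, whose ligands are induced by interferon, was even within groups, at 32.2, 34.6, 33.3 and 34.4 CPM in TG CRE+, against 102, 101, 103 and 108 CPM in KO CRE+ cDC1. It was 3.08-fold lower (log2 -1.62, SE 0.15, adjusted p = 4.96e-08), and the line-adjusted difference of -1.88 passed (adjusted p = 7.41e-05). Ccr9, a receptor of gut homing, was 2.78-fold lower (adjusted p = 0.00334), and Cxcr5, a follicle homing receptor, was 3.93-fold lower at levels of at most 1.6 CPM. Without TG CRE+ replicates 1 and 2 together, neither Ccr9 nor Cxcr5 passed, and the count was 2.

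**Figure D4:**
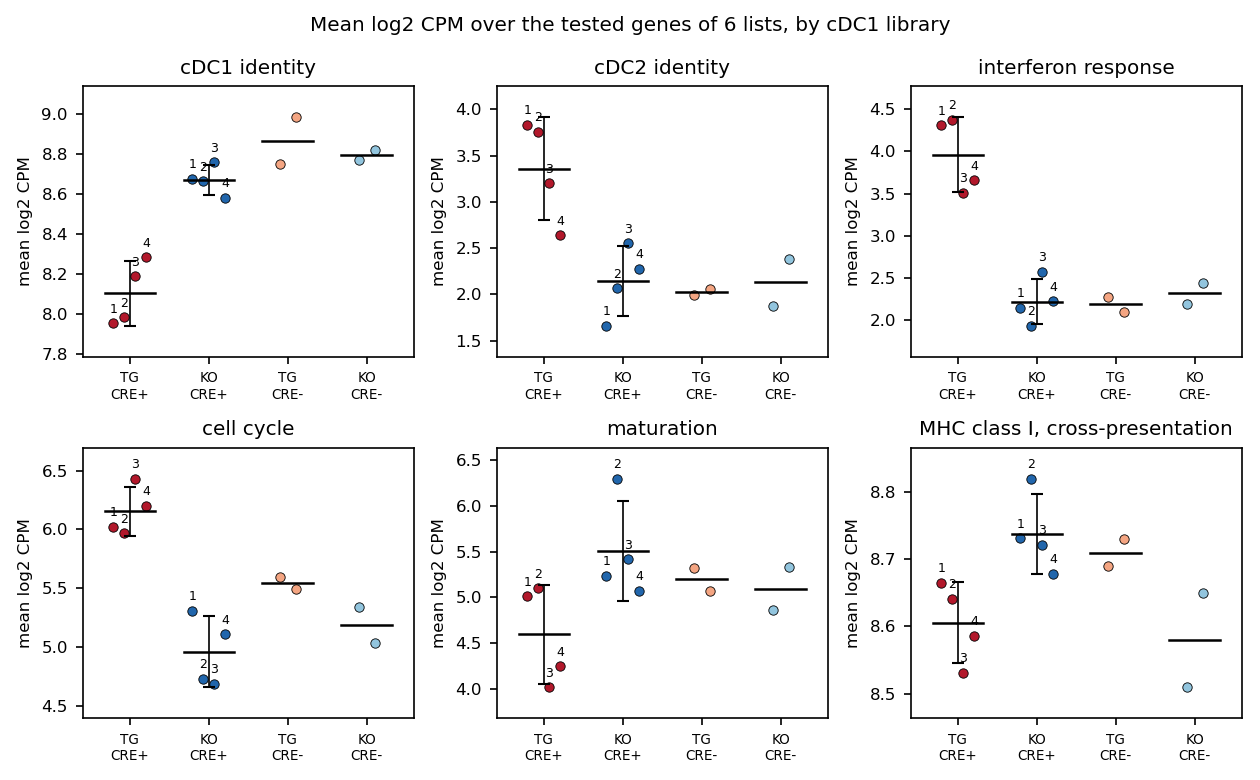
Mean log2 CPM over the tested genes of 6 lists in each cDC1 library, by group, with replicate numbers beside the Cre-positive libraries; lines are means, error bars are SD for the groups of 4, and the vertical axes do not start at 0. TG CRE+ replicates 1 and 2 lie above 3 and 4 in the cDC2 identity and interferon response lists, and KO CRE+ replicate 2 is the highest library in the maturation list.

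Genes of antigen presentation on MHC class I were in part lower. Of 20 genes of class I and cross-presentation, 9 were lower and 1 higher (50%, beside 18.8% of all genes), with a median of -0.21. With TG CRE+ replicates 1 and 2 left out, 6 of the 20 were lower. In the line-adjusted difference 6 were lower and 1 higher, with a median of -0.45. Tap1, a subunit gene of the peptide transporter into the endoplasmic reticulum, stood at 580, 568, 492 and 600 CPM in TG CRE+, against 924, 1080, 914 and 813 CPM in KO CRE+ cDC1 (1.66-fold lower, adjusted p = 2.79e-06). Nlrc5, the transactivator of class I genes, stood at 52.3, 46.5, 41 and 42.7 CPM in TG CRE+, against 88.1, 132, 87.8 and 90.1 CPM in KO CRE+ cDC1 (2.18-fold lower, adjusted p = 1.06e-05). Its log2 fold change of -1.12 became -0.95 when KO CRE+ replicate 2 was left out. Tap2, Tapbp, Tapbpl, the immunoproteasome gene Psmb9, H2-K1, H2-D1 and Wdfy4 were the others that were lower. Cybb, which encodes the NADPH oxidase subunit of phagosomes, ran the other way, at 75.8, 71.1, 35.4 and 16.9 CPM in TG CRE+, against 3.31, 1.25, 5.42 and 6.12 CPM in KO CRE+ cDC1 (12.4-fold higher, adjusted p = 3.11e-07).

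Of 17 genes of presentation on MHC class II, 4 were higher and 3 lower (41.2%, beside 18.8% of all genes), with a median of -0.08. Adjusted for line, 2 of the 17 were higher and 1 was lower. The class II genes H2-Aa, H2-Ab1 and H2-Eb1, the invariant chain gene Cd74 and their transactivator gene Ciita did not pass, with log2 fold changes of -0.15 to 0. H2-Ob, part of the inhibitor of peptide loading H2-O, stood at 187, 203, 189 and 193 CPM in TG CRE+, against 342, 316, 359 and 316 CPM in KO CRE+ cDC1 (1.73-fold lower, adjusted p = 3.4e-08). The protease genes Lgmn and Ctss were 2.02-fold and 1.34-fold higher (adjusted p = 4.97e-05 and 8.47e-05). Ctsd was 1.65-fold higher with overlapping groups, and it did not pass without TG CRE+ replicates 1 and 2 together. Those replicates left out, 2 of the 17 were higher. Without TG CRE+ replicate 3, 1 was lower.

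Junction genes that ZEB factors are known to repress in epithelia were often too low to test. Of 30 genes in the files, 16 had enough counts to be tested. Of these, 4 were lower and none was higher (25%, near the 18.8% of all genes), with a median of -0.24. Cldn1, a claudin gene, stood at 9.24, 10.5, 9.61 and 6.75 CPM in TG CRE+, against 26.1, 46.4, 36.5 and 29.3 CPM in KO CRE+ cDC1 (3.83-fold lower, adjusted p = 6.17e-06). The tricellular junction gene Marveld2 was 3.74-fold lower and the membrane protease gene St14 was 2.82-fold lower (adjusted p = 0.000203 and 3.98e-06). Crb3, a polarity gene, had 2 counts in TG CRE+ and 44 in KO CRE+ cDC1, a ratio of 0.0391 (interval 0.00459 to 0.15), and its call was lost when TG CRE+ replicates 1 and 2 were left out (adjusted p = 0.0685). Cdh1, the gene for E-cadherin, averaged 0.0899 CPM in TG CRE+ and 0.0216 CPM in KO CRE+ cDC1 and did not pass (adjusted p = 0.352). Adjusted for line, 2 of the 16 were lower, Marveld2 and St14.

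Of 30 genes of TGF-beta and BMP signalling, 3 were higher and 4 lower, with a median of -0.05. The share called, 23.3%, was near the 18.8% of all genes, and 1 gene was higher and 1 lower in the line-adjusted difference. Ltbp2, a latent TGF-beta binding protein gene, stood at 2.48, 2.16, 2.87 and 3.19 CPM in TG CRE+, against 19.8, 18.7, 30.1 and 17.7 CPM in KO CRE+ cDC1. It was 8.01-fold lower (log2 -3.0, SE 0.22, adjusted p = 1.66e-09), and the line-adjusted difference of -3.31 passed (adjusted p = 6.16e-06). Skil, a brake on SMAD signalling, was 2.01-fold lower, and Smad7, the inhibitory SMAD, was 1.66-fold higher (adjusted p = 0.000457 and 0.000994). With TG CRE+ replicates 1 and 2 left out, 2 of the 30 were lower, and without a filter on low counts 5 were higher. Nrros, which anchors latent TGF-beta on myeloid cells, was 1.39-fold higher. None of Smad1, Smad2, Smad3, Smad4 and Smad5 passed, with log2 fold changes of -0.13 to 0.17.

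Of 22 tested integrin genes and their partners, 2 were higher and 3 lower (22.7%, near the 18.8% of all genes), and 1 and 2 were so in the line-adjusted difference. Actn1, the gene for the integrin-linked actin crosslinker alpha-actinin, stood at 13.9, 11.4, 9.65 and 11.3 CPM in TG CRE+, against 56.1, 72.7, 72 and 57.3 CPM in KO CRE+ cDC1, 5.56-fold lower (log2 -2.47, SE 0.16, adjusted p = 3.01e-10). Itga3 was 3.41-fold lower and Itga9 3.65-fold higher, beside Itgam above. Itgax, which encodes CD11c itself, averaged 652 CPM in TG CRE+ and 699 CPM in KO CRE+ cDC1 and did not pass (adjusted p = 0.397). Of 16 tested genes of the BCL2 family, 7 were lower and none was higher (43.8%, beside 18.8% of all genes), by 0.36 to 0.83 on the log2 scale. None passed in the line-adjusted difference, where the median was -0.06 beside -0.37 in the main comparison. Their summed level was 1736 to 1959 CPM in TG CRE+ and 2295 to 2922 CPM in KO CRE+ cDC1. Without Cre it was 1924 and 2023 CPM in TG CRE- and 2548 and 2578 CPM in KO CRE- cDC1. Pmaip1, which encodes the death protein NOXA, stood at 483, 489, 699 and 455 CPM in TG CRE+, against 716, 1150, 1230 and 682 CPM in KO CRE+ cDC1, and its groups overlapped. Bmf, another death protein gene, was 1.76-fold lower and Mcl1, a survival gene, 1.28-fold lower. Without TG CRE+ replicates 3 and 4 together, 3 of the 16 were lower.

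Early response and heat shock genes report on handling as well as on signals. Of 22 genes, 3 were higher (Hsph1, Hspa8 and Hsp90aa1) and 3 lower (Egr1, Ier2 and Jund). The share called was 27.3%, beside 18.8% of all genes. The median was -0.40. In the line-adjusted difference the median was 0.035, and none passed. Without TG CRE+ replicates 1 and 2 together none was higher and 1 was lower, and without replicates 3 and 4 together 8 were lower. Egr1 stood at 488, 439, 733 and 634 CPM in TG CRE+, against 1050, 1470, 1610 and 1610 CPM in KO CRE+ cDC1 (2.5-fold lower, adjusted p = 0.00012). Their part in the other results was not tested.

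Among unmarked genes with no overlap between groups, those with the lowest fold changes beside Fcrla had different known roles. Ttc39a, a tetratricopeptide repeat gene, stood at 8.74, 10, 12.2 and 15.3 CPM in TG CRE+, against 158, 186, 181 and 161 CPM in KO CRE+ cDC1, 14.8-fold lower (log2 -3.88, SE 0.23, adjusted p = 9.85e-11). Cre-negative cDC1 held 175 and 212 CPM in the transgene line and 163 and 172 CPM in the deletion line, so the 4 TG CRE+ libraries stood apart from all 8 others. Dkk3, a secreted Dickkopf family gene, was 12.1-fold lower, with 4.46, 4.53, 6.9 and 11.3 CPM in TG CRE+ against 67.7, 61.5, 126 and 77.7 CPM in KO CRE+ cDC1. Gm3336 was 9.91-fold lower, and Rtn4rl1, a Nogo receptor relative, was 12.4-fold lower. Dnajc22 and Crispld2 were 17.1-fold and 15.9-fold lower at levels of at most 6.11 CPM in KO CRE+ cDC1. Abcd2, a peroxisomal transporter gene, was 10.9-fold lower, and its line-adjusted difference of -1.91 did not pass (adjusted p = 0.106). Asprv1, an aspartic protease gene known from skin, stood at 6.47, 12.6, 1.12 and 1.36 CPM in TG CRE+, against 20.9, 91.8, 32.3 and 37.4 CPM in KO CRE+ cDC1, with KO CRE+ replicate 2 the highest, and its log2 fold change was -3.11 with and -2.5 without that library. Of the 10 lowest genes, 9 passed in the line-adjusted difference, beside 2.89% of all genes. That difference uses the same Cre-positive libraries by which the 10 lowest and the 10 highest genes were chosen. Passing in it is therefore no separate support for them.

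At the other end, Zeb2 stood among Clec4a4, Clec4a1, Gm9733, Sirpb1a, Rtp4, 1810011H11Rik, Ptger3, Ifit1bl1 and Ifit3b. Ptger3, a prostaglandin E2 receptor gene, stood at 14.3, 14.4, 5.62 and 1.74 CPM in TG CRE+, against 0, 0, 0.265 and 0.819 CPM in KO CRE+ cDC1 (33.6-fold higher, adjusted p = 5.2e-06). These genes were scarce in KO CRE+ cDC1, at a group mean of at most 1.38 CPM. In the line-adjusted difference 4 of the 10 passed, with the Cre-negative values also near 0. The genes with the highest line-adjusted difference were Cd101, Clec4a1, Prdm1 and Sirpb1a. Prdm1, which encodes the repressor BLIMP1, stood at 17.4, 18.8, 14.2 and 7.13 CPM in TG CRE+, against 1.26, 0.749, 2.29 and 0.517 CPM in KO CRE+ cDC1, and at 0.241 and 0.985 CPM in TG CRE- against 2.55 and 3.28 CPM in KO CRE- cDC1. It was higher by log2 3.57 (SE 0.40, adjusted p = 8.64e-07), and the line-adjusted difference was 5.88 (SE 0.79, adjusted p = 7.41e-05).

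Cre-negative cDC2 and cDC1 gave an independent measure of subset, from libraries that the comparison does not use. Between them 3634 genes were higher (27.6%) and 3401 lower (25.8%) in cDC2, 53.4% of all genes. Of the 1280 genes higher with the transgene, 606 (47.3%) were higher in cDC2, which is 16.7% of the genes higher in cDC2, and 248 (19.4%) were lower in cDC2. Of the 1197 genes lower with the transgene, 522 (43.6%) were lower in cDC2, 15.3% of the genes lower in cDC2, and 323 (27%) were higher there. All 20 genes of the cDC1 list were lower in Cre-negative cDC2, with a median log2 fold change of -5.19. Their median between TG CRE+ and KO CRE+ cDC1 was -0.50.

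The same pair of alleles was compared in cDC2, where TG CRE+ held 153 CPM of Zeb2 and KO CRE+ 35.8 CPM on average (log2 2.09, adjusted p = 2.19e-06). In cDC2, 2085 genes passed (15.8%), 1080 higher (8.2%) and 1005 lower (7.63%). Of the genes higher in cDC1, 437 were higher in cDC2 too (34.1% of the genes higher in cDC1 and 40.5% of those in cDC2), and 47 were lower. Of those lower in cDC1, 404 were lower in cDC2 too (33.8% and 40.2%), and 39 were higher. The difference between transgene and deletion itself differed between cDC1 and cDC2 for 866 genes (6.58%), 460 more positive in cDC1 (3.49%) and 406 more negative (3.08%).

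Of the 10 highest genes above, Zeb2 was the one that passed in cDC2. The level these genes had to reach was an average over all 24 libraries, and Clec4a4 and Sirpb1a, scarce in cDC1, reached it through cDC2, where they are high. For such genes the contrast between the subsets is in part set by how they were chosen. Clec4a4 averaged 147 CPM in TG CRE+ and 150 CPM in KO CRE+ cDC2, and Sirpb1a 219 and 165 CPM in TG CRE+ and KO CRE+ cDC2. Of the 10 lowest genes, 6 were lower in cDC2 as well, among them Ttc39a, at 0.897 CPM in TG CRE+ and 15.2 CPM in KO CRE+ cDC2 (log2 -4.07, adjusted p = 2.02e-09). Id2 had nearly the same log2 fold change in both subsets, -0.71 in cDC1 and -0.78 in cDC2, with a difference of 0.08 (SE 0.18, adjusted p = 0.896).

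Among the named genes with the widest difference between subsets, some passed in opposite directions and some in cDC2 alone, as the values below show. Gcsam, lower in TG CRE+ cDC1, was higher in cDC2, at 1.13 CPM in TG CRE+ and 0.0972 CPM in KO CRE+ cDC2, and the difference between subsets was -5.89 (SE 0.51, adjusted p = 1.5e-07). Cd101, an inhibitory receptor gene, was 16-fold higher in TG CRE+ than KO CRE+ cDC1, at 2.28 ± 0.99 against 0.13 ± 0.118 CPM (SD, n = 4 each). In cDC2 it was lower, at 19.4 CPM in TG CRE+ and 91.9 CPM in KO CRE+, and the difference was 6.25 (SE 0.53, adjusted p = 1.5e-07). Gp2, a receptor gene for bacterial FimH, was 1.81-fold higher in TG CRE+ cDC1 and far higher in TG CRE+ cDC2, at 29.7 CPM in TG CRE+ and 0.431 CPM in KO CRE+ cDC2. Its call in cDC1 was lost in DESeq2's Wald test (adjusted p = 0.0594). Mmp9, a gelatinase gene, averaged 245 CPM in TG CRE+ and 11.6 CPM in KO CRE+ cDC2, while in cDC1 it stood at 0.0936 and 0.379 CPM in TG CRE+ and KO CRE+ and did not pass. Plce1, a phospholipase gene, had no count in TG CRE+ cDC2 and 4.86 CPM in KO CRE+ cDC2, against 15.8 CPM in TG CRE+ and 22.1 CPM in KO CRE+ cDC1, where it did not pass (adjusted p = 0.383).

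**Figure D5:**
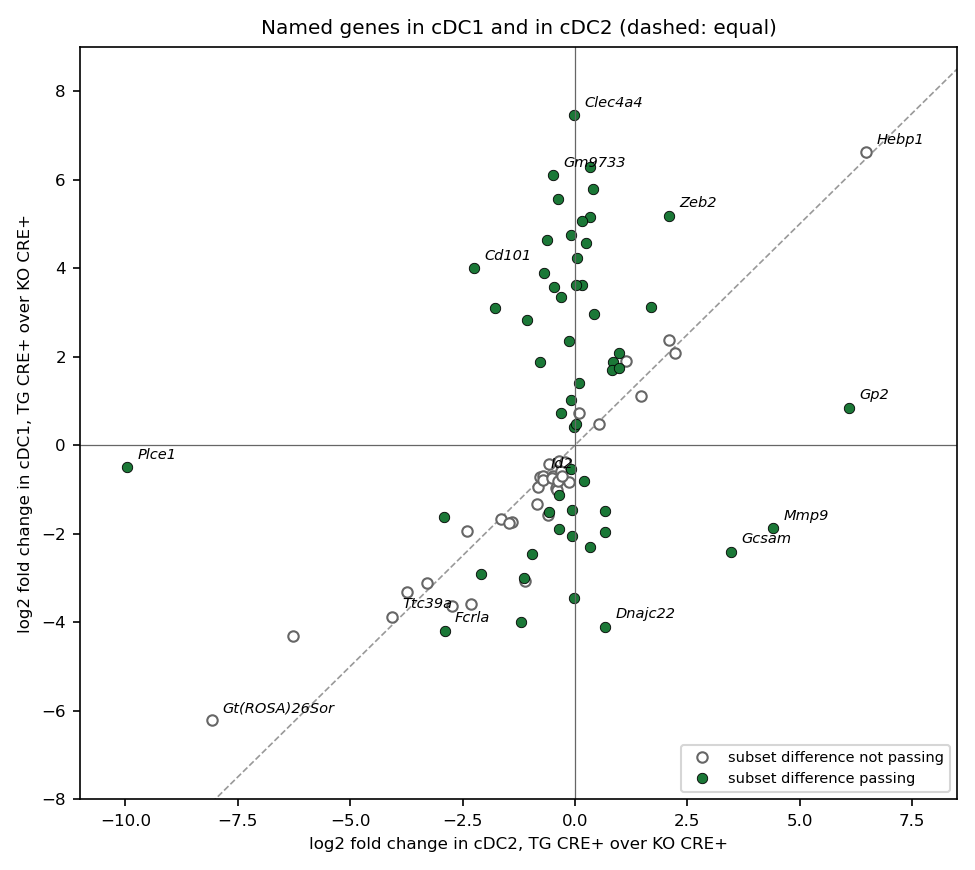
Log2 fold change of the named genes between TG CRE+ and KO CRE+, in cDC1 (vertical) and in cDC2 (horizontal); green points passed in the test of the difference between subsets, open points did not, and the dashed line marks equal values. Clec4a4 and Gm9733 lie high at about 0 in cDC2, Ttc39a and Hebp1 lie near the line of equal values, and Plce1, Mmp9, Gcsam and Gp2 lie far from it.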

How the data were processed

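RNA was sequenced from sorted splenic cDC1 and cDC2, and the authors deposited 1 table of raw read counts per gene for each of the 24 libraries. The submitters' processing notes name FastQC 0.11.4, Trimmomatic 0.35, TopHat2 2.1.0, SAMtools 0.1.18 and mm10. Which program, annotation and strand mode counted the reads was not given in the sources used here, so antisense, overlapping and near-identical genes are uncertain. Rows that name no gene were left out of library sizes; in the 8 compared libraries reads in no feature came to 10.4% to 14.2% of counts, and ambiguous reads to 0.971% to 1.09%.

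Counts of all 24 libraries were fitted in 8 group means with edgeR 4.0.16 (R 4.3.3), TMM scaling and filterByExpr (minimum 10 in a library, 15 in all), leaving 13166 genes, with the quasi-likelihood test and Benjamini-Hochberg adjustment at 0.05. Groups came from the labels. Contrasts were TG CRE+ minus KO CRE+ in cDC1, the same without Cre (the marks), their difference, the same in cDC2, and the difference between subsets. Simulated counts were drawn independently for each library, with 200 genes changed, none of them from those with the lowest levels. The likeness of TG CRE+ replicates 1 and 2 was not simulated, so these rates may not hold for the data. On simulated counts the main contrast recovered 83% of genes changed 2-fold and 97% of those changed 4-fold. The contrast without Cre recovered 73% and 92%, and the line-adjusted contrast 63% and 92%. Of the calls, 2.7% were false in the main contrast, 3.51% without Cre and 6.63% in the line-adjusted contrast. DESeq2 1.42.0, other filters, the replicate block and left-out libraries were alternatives. Counting intervals cover counting error only. Promoter windows and gene positions are from RefSeq GRCm38.p6.

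The comparison, lists and rules were chosen with earlier results of these data known. Named genes were Zeb2, Zeb1 and Id2, the 10 unmarked passing genes without overlap at each end of the fold changes (average log2 CPM of at least 2), up to 4 marked genes each way, up to 4 passing genes of each list by p, and up to 4 each way in the line-adjusted and subset differences. Other genes were named as list members. One list member is not reported here.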

Additional observations from a re-analysis of the deposited data

Results flagged for a closer look

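Single libraries stood apart from the other 3 of their group in 9 of 182 tested sets of 4 values, where chance gives about 1 in 20. KO CRE+ replicate 2 was high for Fscn1 (698 CPM), Tnfrsf4 (64.8 CPM) and Nlrc5 (132 CPM), and KO CRE+ replicate 1 was low for Ddx58 (0.609 CPM). KO CRE+ replicate 3 was high for Clec4a4 (0.0441 CPM, its 1 count). TG CRE+ replicate 4 was low for 1810011H11Rik (0.84 CPM) and Cd200 (9.97 CPM), and TG CRE+ replicate 3 was high for Pmaip1 (699 CPM) and Crb3 (0.0775 CPM).

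The difference between transgene and deletion differed between cDC1 and cDC2, by edgeR's test of that difference, for 866 genes. It was more positive in cDC1 for Plce1 (log2 9.48), Clec4a4 (7.49), Gm9733 (6.59) and Cd101 (6.25). It was more negative in cDC1 for Mmp9 (-6.28), Gcsam (-5.89), Gp2 (-5.24) and Dnajc22 (-4.77). Plce1 had no count in TG CRE+ cDC2, so its value depends on the prior count and is no measured size.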

How the results depend on the processing

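Zeb2 stayed higher under every setting run (log2 4.93 to 5.91 with a library left out). The counts of genes higher and lower in TG CRE+ cDC1 were 1280 and 1197, and 442 and 389 at 2-fold or more. Leaving out 1 library gave 1029 to 1215 higher and 906 to 1186 lower. Without TG CRE+ replicates 1 and 2 together, chosen after seeing the data, 901 were higher and 778 lower. The 8 libraries fitted alone gave 999 and 1011, and with the replicate block 841 and 904. DESeq2's Wald test called 1374 and 1389, and shared 2457 of the 2477 calls. The 17 genes that differed without Cre became 53 by DESeq2, 6 with the 12 cDC1 libraries alone and 8 to 12 with a library left out. The 380 line-adjusted calls became 601 by DESeq2, 209 with the 12 cDC1 libraries alone, and 169 to 412 with a library left out, 169 without KO CRE- replicate 1. The 866 subset differences became 689 to 863 with a library left out. They became 966 with a block by line and replicate number, added after seeing the data.

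Same-numbered TG CRE+ and KO CRE+ cDC1 libraries did not deviate together (r of 0.0077, 0.0037, 0.0199 and -0.0332 across genes), so the numbers do not pair them. Within each line with Cre, same-numbered cDC1 and cDC2 libraries had r of 0.0566 to 0.132. The labels do not say whether these come from the same mouse, and the main test of the subset difference did not pair them. With the replicate block, 1260 genes were higher and 1191 lower, 16 differed without Cre, 372 passed adjusted for line and 872 between subsets, and Zeb2 was at 5.21. Of 1452 values of 91 named genes under the alternatives, 1432 kept their call, 14 lost it, 6 gained it and 0 reversed. The cause of these changes was not tested. Depth limits Clec4a4, Gm9733, Crb3 and Olr1, where 1 to 3 counts set a group's value.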
